A study of Bos taurus with 18 samples.

Results

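Body depth (BDE) is a conformation trait scored in the daughters of dairy sires, and the merit of a bull for it is given as a predicted transmitting ability. Sperm methylation was compared here between 3 Holstein bulls with a high predicted transmitting ability for body depth (H02, L03 and L08, called BDE high) and 3 with a low one (H05, H09 and L02, called BDE low), out of 18 bulls in the series. The members of the comparison were autosomal CpG positions listed in at least 2 bulls of each group, with 1 value of percent methylated per bull, and the tiles of 2000 bp that hold such positions. In all, 1965078 of the 39985997 autosomal positions listed in any of the 18 bulls met this rule, which was 4.91%. A tile was tested where every bull listed at least 3 such positions, and 59570 of 1250000 autosomal tiles, or 4.77%, were tested, with a median of 8 positions.

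All 6 bulls were adult, and the sperm of each was read by whole-genome bisulfite sequencing. They carried labels for other traits as well. H02 was also labelled high for sire conception rate (SCR) and low for gestation length (GL). L03 was labelled low for SCR and high for GL, and L08 low for cow conception rate (CCR). H05 was labelled low for GL, H09 high for GL and CCR, and L02 low for SCR and high for sire calving ease (SCE). Each BDE group therefore held 1 bull of high and 1 of low GL, whereas the bulls with a CCR label had the opposite label in the 2 BDE groups, and CCR and BDE cannot be told apart in them. Read counts were listed for H02, L03 and L02, with at least 10 reads at each position and a median of 11, and the depth of L08, H05 and H09 is unknown. The bulls listed from 4509705 to 16491932 autosomal positions.

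Methylation of cytosine in CpG dinucleotides is set anew in male germ cells before birth, and the DNA of mature sperm is highly methylated over most of its length, while CpG islands and many gene starts stay unmethylated. Bisulfite turns unmethylated cytosine into uracil and leaves methylated cytosine as it is, so that the share of reads that still show a cytosine measures the share of sperm DNA copies methylated at that position. A fully unmethylated or fully methylated tile is alike in all copies, and an intermediate tile is methylated in some copies or at some positions only.

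The groups differed little over the genome as a whole. Over the 327901 positions listed in all 6 bulls, mean methylation was 48.1% in H02, 49.97% in L03 and 48.7% in L08, against 47.2% in H05, 48.2% in H09 and 48.5% in L02. The group means were 48.9% ± 0.939 (SD, n = 3) and 48.0% ± 0.715 (SD, n = 3), and the ranges overlapped. The difference of 0.960 points had p = 0.3 in a two-sided exact permutation test, for which 0.1 is the smallest value that 3 against 3 bulls can give. It was 0.443 points without L03 and 0.556 points without H05. The smallest value of 0.1 holds for every exact test of 3 against 3 bulls here. The exact p-values rank the difference among all splits of these bulls into 3 and 3. The limma p-values set it against the spread between bulls, drawn towards a trend over all tiles, bins or positions tested. A logistic regression given below leaves that spread out, and the correlations below rest on bulls of neither group.

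Of these positions, 40.2% ± 1.39 (SD, n = 3) were at most 20% methylated in BDE high and 41.3% ± 1.14 (SD, n = 3) in BDE low (exact permutation p = 0.4). The shares at least 80% methylated were 38.2% and 37.4%, with p = 0.3 in the exact permutation test. Without L03 the 2 differences shrank from -1.17 to -0.502 and from 0.759 to 0.389 points, and without H05 to -0.547 and 0.445 points. Bulls of 1 group were hardly closer to each other than to the other group. The mean absolute difference over tested tiles was 4.83 points within BDE high, 4.75 within BDE low and 4.84 over the 9 pairs across groups, and the closest pair of all was H02 and H05 with 4.36 points.

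No tile passed the call of an adjusted p under 0.01 with a difference over 5 points (limma with Benjamini-Hochberg adjustment, 0 of 59570 tiles), and the smallest adjusted p was 0.0661. At an unadjusted p under 0.05, 1894 tiles were higher and 718 lower in BDE high by over 5 points, together 4.38% of the tiles. A logistic regression that counts every position as 10 reads and leaves out the variation from bull to bull called 939 tiles, or 1.58%, and the same regression with an overdispersion term and an F test called 0. The difference between groups was within 5 points in 83.7% of tiles, its median was 0.516 points, and the median SD within groups was 3.27 points.

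As a description with no test, the 3 bulls of a group lay wholly above the 3 of the other and the means differed by over 5 points in 2249 tiles higher in BDE high, or 3.78% of the tiles, and in 914 tiles lower in BDE high, or 1.53%. Without the limit on size, the groups did not overlap in 6.93% of tiles higher and in 3.21% lower. Of all splits of 6 differing values into 3 and 3, a share of 0.1 does not overlap, counting both directions. A lack of overlap by itself therefore does not set a tile, bin or position apart. The tiles over 5 points apart are called higher and lower tiles below. Higher tiles were 71.1% of both. L03 was the highest of the 6 bulls in 24.97% of tiles, the largest share of any bull, and its median deviation from the mean of the 6 bulls was 1.09 points. With the medians of the bulls aligned, 1799 tiles were higher and 1274 lower, so that 58.5% were higher, and without L03 the split was 2466 to 1745, or 58.6% higher.

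Higher tiles were most frequent among tiles of intermediate methylation. Of the 8674 tiles that averaged between 20 and 80%, 9.67% were higher and 1.88% lower. Of the 5246 tiles at most 20% methylated 1.70% were higher and 0.210% lower, and of the 45650 tiles at least 80% methylated 2.89% were higher and 1.62% lower. The number of positions listed in any of the 18 bulls stands in for the number of CpG sites. The share of higher tiles was 7.79% in the 2003 tiles with under 20 positions and 1.86% in the 4417 with 100 or more. It was 3.84% in the 30858 tiles with 20 to 49 and 3.71% in the 22292 with 50 to 99. Over all tiles it was 3.78%. The shares of lower tiles in the 4 classes, from sparsest to densest, were 1.60%, 1.76%, 1.46% and 0.317%. The mean difference in the sparsest and the densest class was 1.76 and 0.752 points, and the exact permutation tests of all 4 classes gave an adjusted p of 0.4. Without L03 the difference in the sparsest class was 0.564 points, and without H05 that in the densest was 0.286 points.

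BTA14 and BTA21 stood apart from the other autosomes, as the plot of tiles by autosome shows. On BTA14, 12.5% of 2518 tiles were higher and 1.27% lower, and on BTA21 7.94% of 2203 were higher and 1.13% lower. The other 27 autosomes had between 2.36% (BTA4) and 4.68% (BTA17) higher tiles. These were also the only 2 of 29 autosomes on which all BDE high bulls had a higher mean than all BDE low bulls. The mean over BTA14 tiles was 77.5% in BDE high and 75.6% in BDE low, a difference of 1.90 points, and over BTA21 80.9% and 79.5%, a difference of 1.38 points. Both had p = 0.1 in the exact permutation test, the smallest possible, and an adjusted p of 0.504 over the 29 autosomes.

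**Figure D1:**
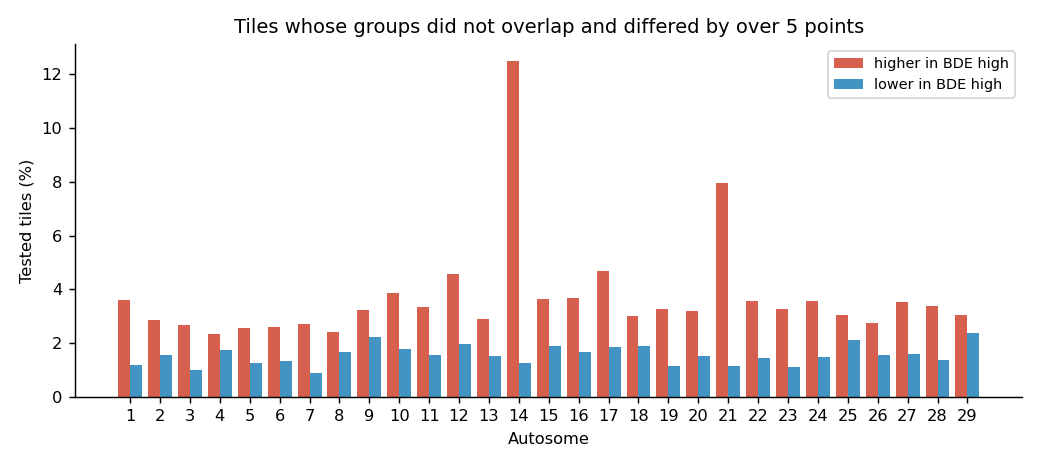
Share of tested tiles (%, y axis) on each of the 29 autosomes (x axis) whose groups did not overlap and differed by over 5 percentage points, with red bars for tiles higher and blue bars for tiles lower in BDE high. The red bars of BTA14 (12.5%) and BTA21 (7.94%) rise above all others, which are at 4.68% or less.

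The excess lay in a few stretches. When the tiles were grouped in bins of 1 Mb with at least 20 tested tiles, 9 of 1121 bins had at least 20% higher tiles. This limit was set after the tile differences had been seen, and the bins are a description of them. The 9 bins were the first, the second and the third Mb of BTA14, the second and the third of BTA21, the first of BTA24, the 26th of BTA17, the 79th of BTA12 and the 53rd of BTA23. They held 820 tiles, 1.38% of those tested, and 403 of the 2249 higher tiles, or 17.9%, beside 2 lower tiles. In the tiles outside them 3.14% were higher and 1.55% lower. Tiles between 20 and 80% methylated made up 63.5% of the tiles in the 9 bins and 13.9% elsewhere. Among such tiles alone, 364 of 521 (69.9%) were higher in the 9 bins and 475 of 8153 (5.83%) elsewhere.

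The first Mb of BTA14 carried the largest of these stretches. The mean over its 356 tested tiles was 37.8% in H02, 40.6% in L03 and 40.7% in L08, and 30.5% in H05, 26.1% in H09 and 30.7% in L02. All 3 BDE high bulls were thus above all 3 BDE low bulls. The groups averaged 39.7% ± 1.68 (SD, n = 3) and 29.1% ± 2.59 (SD, n = 3), which differed by 10.6 points (SE 1.44). In a limma fit over the 1121 bins, which was chosen after the tiles had been seen, its adjusted p was 0.0132, and it was the 1 bin under 0.05 (0.0892% of bins). As given below, this call was lost without L03, without L08, and with a covariate for whether read counts were listed. Without a threshold, the groups did not overlap in 130 bins higher (11.6%) and 9 bins lower (0.803%) in BDE high. The median difference over all bins was 0.563 points, so a small offset shared by most bins enters these counts. They were not taken again with the medians of the bulls aligned.

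The gain covered nearly the whole of that Mb. The tile difference was above 0 in 348 of 356 tiles, 214 tiles (60.1%) were higher, and none was lower. The 250 tiles between 20 and 80% methylated held 189 of the higher tiles, whereas 23 of the 103 tiles at most 20% methylated were higher. In steps of 200 kb the mean difference was 9.47, 11.9, 9.63, 9.73 and 13.4 points over the first Mb, then 13.2 points up to 1200000 and 5.44 points in the 13 tiles up to 1400000. The 5 tiles tested from 2200001 to 2400000 differed by 8.23 points, with 40.6%, 45.4% and 48.2% in H02, L03 and L08 and 39.95%, 34.6% and 35.0% in H05, H09 and L02, and the 10 tiles from 2600001 to 2800000 by 1.48 points. From 3000001 to 4000000, where all 6 bulls were above 90% methylated in each step, the step differences lay between -1.59 and 1.29 points. The plot along BTA14 and BTA21 shows the 6 bulls along these stretches.

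**Figure D2:**
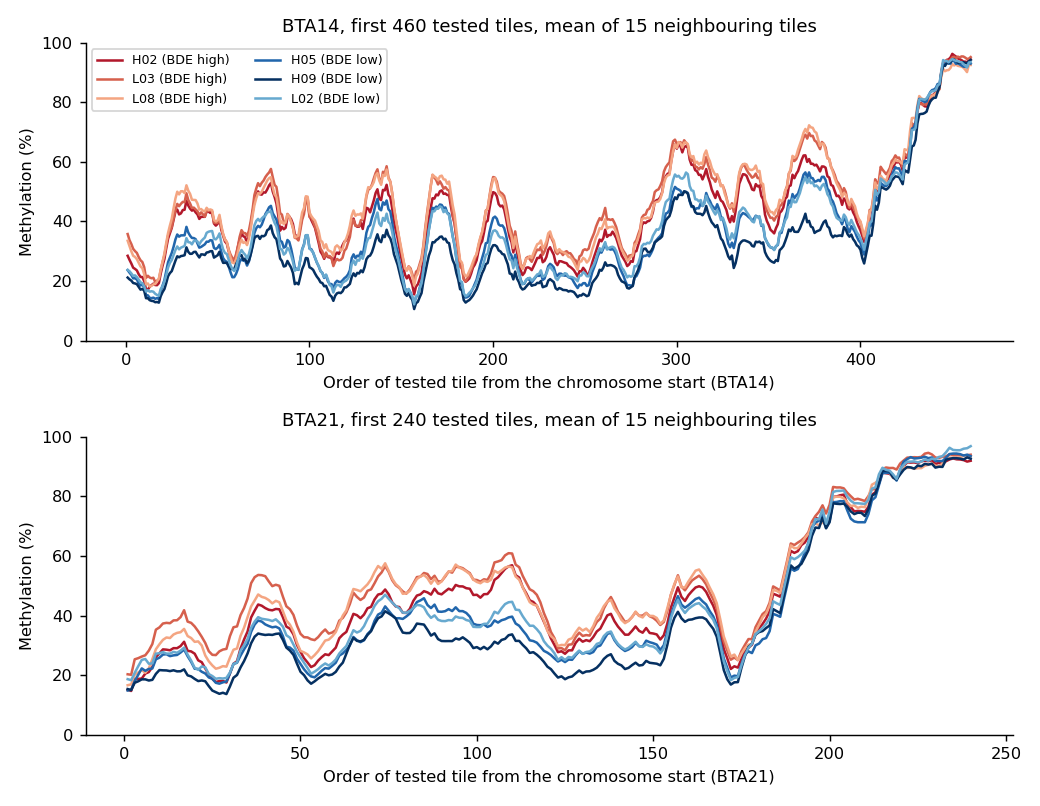
Methylation (%, y axis) of each of the 6 bulls along the first tested tiles of BTA14 (top) and of BTA21 (bottom), in order from the chromosome start (x axis), as a moving mean of 15 tiles. The lines of the BDE high bulls (red shades) mostly run above those of the BDE low bulls (blue shades) below 60% methylation, but cross them at the start of BTA21 and before methylation climbs, and above 70% the 6 lines lie close together.

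In the second Mb of BTA14, 33 of 61 tiles were higher and 1 was lower. The means were 52.3%, 56.7% and 56.6% in H02, L03 and L08, against 47.4%, 39.4% and 47.2% in H05, H09 and L02, a difference of 10.6 points with an adjusted p of 0.0962 in limma over bins. The third Mb had 5 higher tiles of 24, its groups overlapped, and it differed by 2.30 points.

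On BTA21, the 8 tiles from 800001 to 1000000 overlapped, with 16.1%, 21.7% and 17.6% in H02, L03 and L08 and 16.6%, 15.6% and 19.98% in H05, H09 and L02. Tiles in the second Mb were tested from 1226001 on. H02 had a mean of 37.7%, L03 of 44.3% and L08 of 41.7%, and H05 had 31.8%, H09 27.1% and L02 33.2%. The difference was 10.5 points (SE 1.88), 62 of 121 tiles were higher and none was lower, and the adjusted p was 0.0790 in limma over bins. The third Mb differed by 7.09 points, with 33 of 71 tiles higher. The step of 200 kb that ended at 2000000 had the largest difference of the region, 13.3 points, and 34 of its 47 tiles were higher.

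The other bins were smaller. The tested tiles of the 26th Mb of BTA17 lay within 25028001 to 25128000, and 19 of 48 were higher, with means from 35.6% to 41.1% in BDE high and from 31.0% to 32.2% in BDE low. The 79th Mb of BTA12 differed by 6.33 points with 10 of 42 tiles higher, the first Mb of BTA24 by 5.02 points with 15 of 50, and the 53rd Mb of BTA23 by 3.79 points with 12 of 47. In all 4 the groups did not overlap, and their adjusted p in limma over bins was between 0.181 and 0.543. A single bin met the same limit in the other direction. It was the Mb of BTA8 from 101000001, where 6 of 29 tiles (20.7%) were lower, the bin means overlapped, and the difference was -2.39 points.

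**Figure D3:**
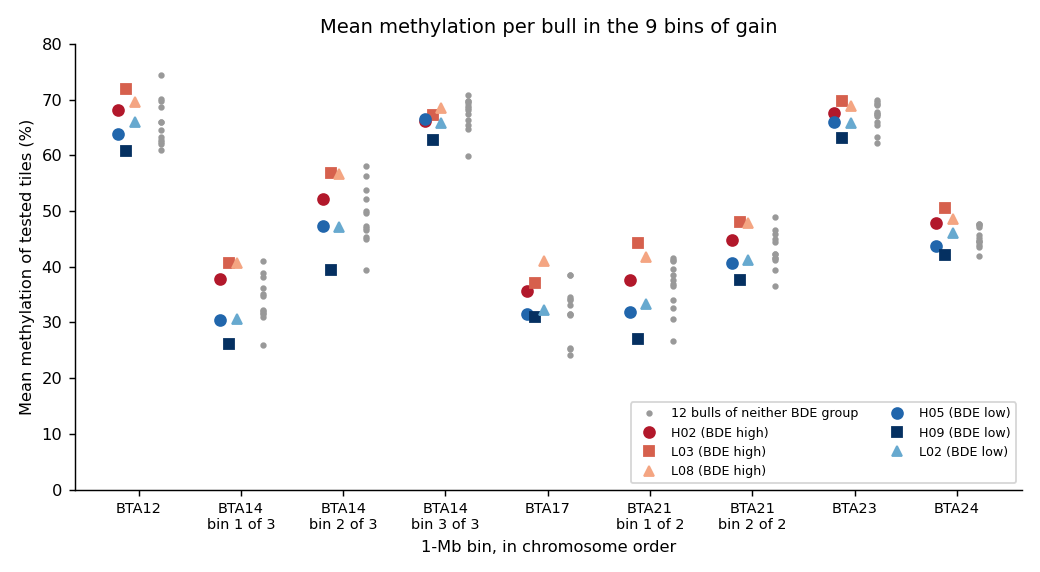
Mean methylation of the tested tiles (%, y axis) in the 9 bins of 1 Mb with at least 20% higher tiles (x axis), with 1 symbol for each BDE high bull (red shades) and BDE low bull (blue shades) and grey points for the 12 bulls of neither group. The red symbols lie above the blue ones in all bins but the third of BTA14, and in the first BTA14 bin the grey points run from 25.9% to 41.0%, across both groups.

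Depth was higher in some of these bins than elsewhere. The median coverage of H02, L03 and L02 in the first Mb of BTA14 was 23, 21 and 23 reads, and in the BTA17 bin 23, 25 and 20, against a median of 11 over the genome. In the other 7 bins it was between 11 and 16. Positions listed in all 6 bulls made up 68.2% of those in the tested tiles of the first Mb of BTA14. In the tested tiles of the other 8 bins they made up from 53.6% to 89.7%. Of all positions that met the rule 16.7% were so listed, but untested tiles are included there, so the shares cannot be compared directly. The part of depth and listing in the differences was not tested. The sequence of UMD 3.1 was not used here, so whether reads from several repeat copies were placed together in these deeper regions, which would make an intermediate percentage a mix of loci, was not tested either. Among the 3 bulls with read counts, the 2 BDE high bulls exceeded L02 in the first Mb of BTA14 by 6.72 points over 4042 positions with 10 to 19 reads in the shallowest bull, and by 7.58 points over 3880 positions with 20 or more. The same difference rose with depth from 2.16 to 7.51 points in the first Mb of BTA24 and from 1.05 to 3.795 points in the third Mb of BTA14, and it fell from 4.67 to 3.76 points in the BTA17 bin. In each of the other 6 bins it also rose with depth. It was between 3.82 and 6.72 points there at the lower depth and between 5.10 and 8.65 points at the higher. In the first Mb of BTA14, the 2 layouts of the deposited files gave like directions. The difference in that Mb was 8.54 points between the bulls with read counts (H02 and L03 against L02). It was 12.4 points between those with percentages alone (L08 against H05 and H09). With the layout as a covariate the difference in that Mb was 10.5 points, with an adjusted p of 0.213 in limma.

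In the 9 bins, whose choice favours a BDE low bull as the lowest of the 6, H09 was the lowest in 469 of 820 tiles (57.2%), and in the first Mb of BTA14 in 223 of 356. Without H09, 219 of 353 tiles in the first Mb of BTA14 were higher and none was lower, the difference was 9.12 points, and the adjusted p in limma over bins was 0.0183. Without L03 the difference was 10.1 points and the adjusted p 0.0996, and without L08 they were 9.97 points and 0.170, so that the call was lost in both, while the share of higher tiles was 64.1% and 61.1%. Over all tiles outside the 9 bins, 4.86% were higher and 4.14% lower without L03.

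The 12 bulls of neither BDE group did not fall to 1 side. In the first Mb of BTA14 they ranged from 25.9% (L06) to 41.0% (H07) with a median of 33.5%. Of these bulls, 11 lay above all 3 BDE low bulls and 9 below all 3 BDE high bulls. L06 had the lowest value of the 12 in all 9 bins, and also the lowest over the other tiles, with 77.9% against a median of 80.8%.

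Bulls that were high in the first Mb of BTA14 tended to be high in the other bins, and the other bins were not compared with each other. Across these 12 bulls, the level in the first Mb of BTA14 had a Pearson r of 0.946 with that in the third Mb of BTA21 (Spearman rho 0.902), 0.940 with the first Mb of BTA24 (rho 0.923) and 0.922 with the BTA12 bin (rho 0.902). The permutation p of r, from 100000 resamples and two-sided, was 3e-05, 5e-05 and 2e-05, where 1e-05 is the smallest possible, and the adjusted p over 9 correlations was 9e-05, 0.000112 and 9e-05. The permutation p of rho was 0.00012, 9e-05 and 0.00012, each with an adjusted p of 0.000315. Without L06 and H07, the 2 bulls farthest from the median, r was 0.864, 0.948 and 0.915. In the third Mb of BTA14, r fell from 0.741 (permutation p = 0.00543, adjusted p 0.00698, rho 0.657) to 0.457 (rho 0.442), so that relation rests on those 2 bulls. In the second Mb of BTA14, the second Mb of BTA21 and the BTA23 bin, r was between 0.859 and 0.952 with all 12 bulls and between 0.723 and 0.884 without these 2. Within the 9 bulls whose files list percentages alone, r was 0.965, 0.940 and 0.936, and the layout with read counts held 3 bulls. The BTA17 bin had the smallest r, 0.630 (permutation p = 0.0277, rho 0.580 with p = 0.0520). The mean over all tiles outside the bins also went along, with an r of 0.722 (permutation p = 0.00874, rho 0.671 with p = 0.0194) and of 0.798 without L06 and H07, so the bins were not alone in varying between bulls.

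Runs of neighbouring tiles whose groups did not overlap in 1 direction gave the finer extent. Of runs of 3 tiles or more, 64 were higher and 2 lower in BDE high. The longest held 23 tiles on BTA21 from 1892001 to 1938000. Its mean was 50.8% in H02, 55.5% in L03 and 55.0% in L08, and 40.2% in H05, 31.6% in H09 and 39.6% in L02, which differed by 16.6 points. Of its 550 positions, 516 were higher in BDE high. The 12 other bulls ran from 35.9% to 49.7%, all below the BDE high bulls, and the lowest of them lay within the range of BDE low. The next in length held 14 tiles on BTA14 from 60001 to 90000, with BDE high bulls from 45.8% to 51.5% and BDE low bulls from 29.3% to 36.5%, and 457 of 513 positions were higher. There the 12 other bulls, from 29.2% to 53.3%, ran past both groups. A run of 14 tiles on BTA24 from 252001 to 286000 differed by 13.2 points, and 316 of its 353 positions were higher. The longest run of lower tiles held 3, on BTA8 from 108290001 to 108296000, with a mean difference of -12.5 points.

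With at least 10 positions in every bull, 6620 tiles could be tested and 3 passed the call (limma, 0.0453% of tiles), all higher in BDE high. Of these, 2 were neighbours on BTA8 and together spanned an element of 511 bp from 23179578 to 23180088. In the tile from 23178001 to 23180000, methylation was 16.0% in H02, 13.1% in L03 and 20.2% in L08, against 4.33% in H05, 2.81% in H09 and 2.69% in L02. The difference was 13.2 points over 56 positions (adjusted p 0.00275). In the tile from 23180001 to 23182000, H02 had 25.4%, L03 24.1% and L08 34.9%, against 4.603%, 3.39% and 5.89% in H05, H09 and L02. The difference was 23.5 points over 14 positions (adjusted p 0.00185).

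The element was nearly unmethylated in BDE low and partly methylated in BDE high. Of its 70 positions, 68 had a higher mean in BDE high, and of the 40 listed in all 6 bulls 28 were higher without overlap and none lower. Over all 327901 positions listed in all 6 bulls, 17418 were higher and 9786 lower without overlap. The 2 tiles were called on these same values, so the counts describe the element and are no further support. The value was exactly 0 in 45.7% of the BDE low entries and in 3.13% of the BDE high entries. The nearest tested tiles on both sides were low in both groups, and no tile between them and the element was tested. The tile from 23166001 was between 1.69% and 8.72% methylated in all 6 bulls and differed by 1.99 points, and the tile from 23184001 was between 1.02% and 3.07% and differed by 1.18 points. In the tile from 23184001 the groups did not overlap either, with 1.63% to 3.07% in BDE high and 1.02% to 1.19% in BDE low. Median coverage in the first tile of the element was 41 reads in H02, 28 in L03 and 29 in L02, against a median of 11 over the genome. Whether reads from several repeat copies were placed together there was not tested. None of the 12 other bulls reached the BDE high bulls, as they lay between 3.19% and 9.63% in the first tile and between 6.75% and 18.7% in the second. Of these bulls, 8 lay between the 2 groups in the first tile, and all 12 did so in the second, above every BDE low bull. In the fit over all 59570 tiles the adjusted p of the pair was 0.177 and 0.0798.

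**Figure D4:**
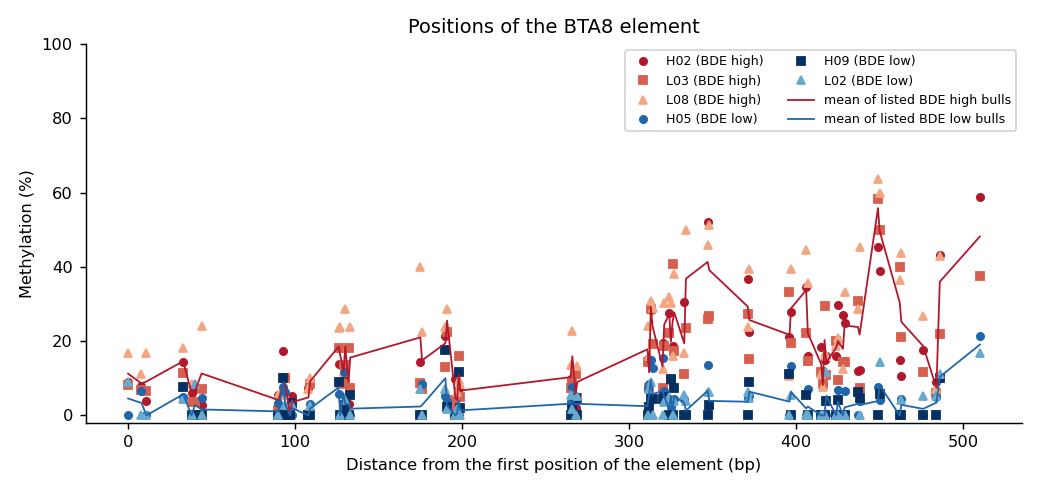
Methylation (%, y axis) of each bull at the 70 positions of the BTA8 element, by distance in bp from its first position (x axis), with 1 symbol per bull and lines for the means of the listed bulls of each group. The red line of BDE high lies above the blue line of BDE low at 68 of 70 positions, and the widest gaps are in the right part of the element.

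The other called tile was on BTA14 from 60001 to 62000, at the start of the run of 14 tiles. It had 25.1% in H02, 27.9% in L03 and 28.7% in L08, and 10.1% in H05, 12.8% in H09 and 11.95% in L02, which differed by 15.6 points (adjusted p 0.00275 in limma over 6620 tiles, and 0.129 over all tiles). Another 3 tiles had an adjusted p under 0.05 in that fit. Those from 244001 and 280001 on BTA14 differed by 22.9 and 11.9 points, and the tile from 61430001 on BTA22 by 13.96 points.

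Of the 21142 tiles with at least 10 positions, the groups did not overlap in 1688 with BDE high above and in 547 with BDE high below. No limit on size was set for these counts, and over all tiles such shares were 6.93% and 3.21%. The 10 largest differences in each direction were singled out from these tiles, and they are described only, because their size chose them. In the upper 10, the difference ran from 24.7 to 35.0 points, and 5 of the 10 lay in the bins of gain. The largest was on BTA21 from 1322001 to 1324000. H02 had 46.5%, L03 61.7% and L08 68.5%, while H05, H09 and L02 had 24.7%, 21.6% and 25.5%. All 11 of its positions were higher in BDE high. The tile from 1940001 on BTA21, which follows the longest run, rested on 35 positions, of which all were higher, by 6.26 to 52.7 points. It had 59.97%, 71.4% and 64.7% in H02, L03 and L08 and 33.3%, 30.1% and 44.2% in H05, H09 and L02. The adjusted p in limma over all tiles was 0.294 for the first and 0.560 for the second.

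Of the upper 10 outside those bins, the tile from 49722001 on BTA10 had 72.1%, 55.1% and 49.8% in H02, L03 and L08, against 27.8%, 31.7% and 33.2% in H05, H09 and L02. The tile from 65972001 on BTA9 had 41.1%, 54.6% and 57.1%, against 30.9%, 17.8% and 28.9%. The 12 other bulls spanned 17.4% to 66.4% in that tile and so covered both groups.

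**Figure D5:**
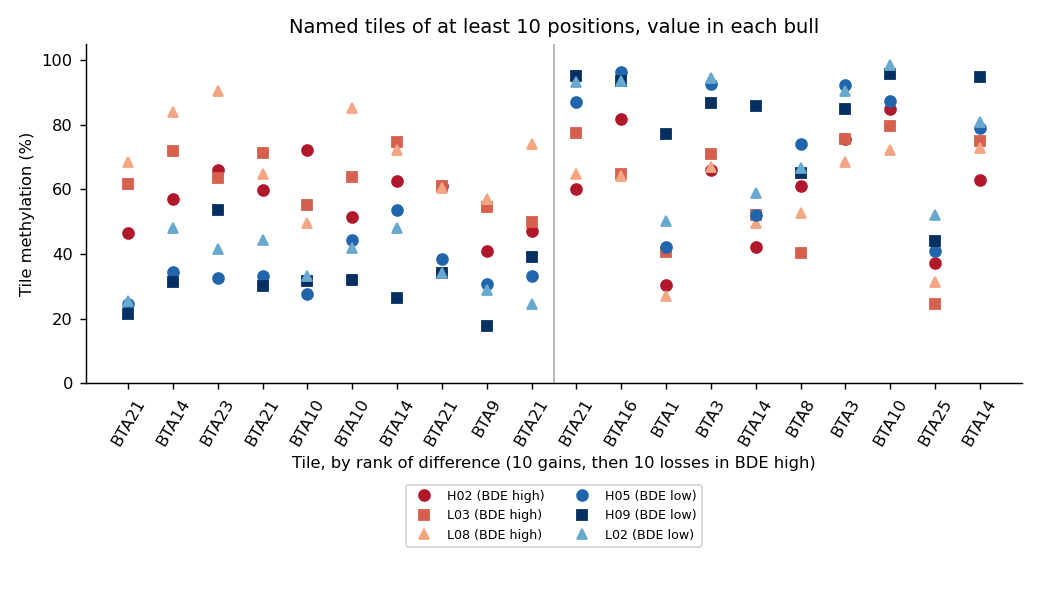
Tile methylation (%, y axis) in each of the 6 bulls for the 10 tiles with the largest gain (left of the grey line) and the 10 with the largest loss (right) in BDE high, ranked by difference (x axis, labelled by chromosome). On the left all red symbols (BDE high) lie above all blue ones (BDE low), from 35.0 down to 24.7 points apart in their means, and on the right below them.

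The 10 largest losses ran from -24.4 to -14.6 points. The tile from 5782001 on BTA21 had 60.03% in H02, 77.4% in L03 and 64.6% in L08, and 87.0% in H05, 95.0% in H09 and 93.3% in L02, and all 12 of its positions were lower. On BTA16 from 2442001, H02 had 81.7% and both L03 and L08 were near 65% (64.9% and 64.2%), while H05, H09 and L02 had 96.4%, 93.5% and 93.7%. On BTA3 from 3534001, H02, L03 and L08 had 65.9%, 71.0% and 66.9% and the BDE low bulls from 86.7% to 94.4%, and all 12 other bulls, from 72.7% to 86.1%, fell between the groups. On BTA14 from 15312001 the groups parted by less than their printed digits, since H05 and L03 both had 52.2%, and H09 stood alone with 85.8%. Without H09 its difference was -7.49 points in place of -17.6. None of the losses lay in the bins of gain. The smallest adjusted p among them was 0.583 in limma over all tiles.

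At single positions, no call was made in 327901 tests (limma, smallest adjusted p 0.424, 0% called). At an unadjusted p under 0.05 with over 5 points, 11250 positions were higher and 6030 lower. The groups did not overlap and differed by over 5 points at 15738 positions higher (4.8%) and 8155 lower (2.49%) in BDE high. The largest difference was at position 101169104 of BTA8, which was 0% methylated in all 3 BDE high bulls and 100% in all 3 BDE low bulls, with 11, 13 and 11 reads in H02, L03 and L02. The 12 other bulls ranged from 0% to 100% there, with a median of 43.5%, and its tile differed by -22.9 points over 5 positions. At position 19406049 of BTA10, H02 had 60% and L03 and L08 100%, while all BDE low bulls had 0%. Among the 8 other bulls that listed this position values ran from 0% to 100%. Genotypes of the bulls were not analysed here.

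The fine-mapped genes of the study, 25 in number, were chosen for gestation length and are given as a fixed list. Of these, 14 had tested tiles within the gene or 2000 bp of it, 50 tiles in all, and DGAT1, an enzyme of triglyceride synthesis, had none. There were no calls, 1 tile was higher (2%) and 1 lower (2%), near the background of 3.78% and 1.53%, and the median difference was 0.667 points against 0.516 over all tiles. The higher tile was in ARID4B, a chromatin regulator, and the lower one in LOC107131356. The largest tile difference of ARID4B was 6.53 points, with 97.6%, 82.9% and 89.0% in H02, L03 and L08 and 78.7%, 86.7% and 84.5% in H05, H09 and L02, which overlapped. Over its 6 tiles, ARID4B averaged 90.8%, 89.6% and 92.4% in H02, L03 and L08 and 88.3%, 86.9% and 87.7% in H05, H09 and L02, a difference of 3.24 points without overlap. LOC107131356 had the largest difference of any gene in the list, -6.20 points over 4 tiles. Its means were 88.9%, 85.7% and 94.3% in H02, L03 and L08, all below the 94.5%, 96.5% and 96.6% of H05, H09 and L02. Its largest tile difference was -19.0 points, in a tile where the groups overlapped. That tile had 74.4%, 62.8% and 94.8% in H02, L03 and L08 and 93.6%, 95.9% and 99.4% in H05, H09 and L02. Only 4 of its 10 positions were lower in BDE high. In WWP2, a ubiquitin ligase gene with 10 tested tiles, the mean was 94.2% in BDE high and 94.5% in BDE low. NRG2, which codes for a neuregulin, had 8 tiles with 95.5% and 95.9%, and MYH10, a non-muscle myosin, 4 tiles with 96.2% and 95.6%. The zinc finger gene ZNF613, which the paper names as a candidate for BDE as well, had 15 positions and no tested tile. The paper reports a region in its second intron that was less methylated in animals with higher BDE. Without a tested tile, that report could not be examined here. Another 4 of the genes with tested tiles, ZNF16, ARHGAP39, SCRT1 and HSF1 (a heat shock transcription factor), lay in the second Mb of BTA14, and each had a single tested tile in which the groups overlapped. In SCRT1, which codes for a zinc finger repressor, H02 had 14.2%, L03 21.3% and L08 16.3%, against 8.89%, 11.2% and 14.97% in H05, H09 and L02, a difference of 5.58 points over 4 positions (unadjusted p 0.0307, adjusted p 0.944, limma). Only 1 of these 4 positions had a higher mean in BDE high. The tiles of ZNF16, HSF1 and ARHGAP39 were above 91% in the means of both groups and differed by 2.64, 2.74 and 4.405 points.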

How the data were processed

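Sperm DNA of 18 adult Holstein bulls was bisulfite converted and sequenced. According to the submitters' notes and the study's methods, reads were checked with FastQC 0.11.2, trimmed with Trim Galore 0.4.0, mapped to the cattle genome UMD 3.1 with Bowtie2 and called with Bismark 0.14.5, and the authors kept positions with at least 10 reads. The deposited files give percent methylated per cytosine position, and in H02, L03 and L02 also the read count (coverage) per position, at most 100. Because 3 of the 6 body depth bulls have no deposited counts, methylated reads could not be tested, and the bull was the replicate. Columns of no sample numbered 0.

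Positions were autosomal and listed in at least 2 bulls of each group. A tile of 2000 bp was tested with at least 3 such positions in every bull. Its value in a bull came from an additive least squares fit of position and bull, which keeps bulls that list different positions comparable and can pass 100% slightly. Groups were compared with limma 3.58.1 in R 4.3.3 (mean-variance trend, Benjamini-Hochberg), a call being an adjusted p under 0.01 and a difference over 5 points, and single values with two-sided exact permutation tests, run in numpy 2.4.6 and scipy 1.17.1 (Python 3.11.15). The scripts were tested on simulated data. Values of bulls outside both groups are mean deviations from the position midpoints, tile by tile, added to the tile level.

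Named tiles were the 10 largest gains and 10 largest losses with at least 10 positions and no overlap. Runs were the 3 longest, positions the 5 largest in each direction, and genes the fine-mapped list, taken with 2000 bp on each side. The members, lists and rules were chosen with earlier results of these data known, and the 1-Mb bins after the tile differences had been seen. Gene annotation and sequence of UMD 3.1 were not used here, and only the fine-mapped genes were placed, by the study's own coordinates. The place of tiles in other genes, a body size gene list and marker checks of the sperm (germ line and imprinted genes) were not analysed. Intervals of single percentages are not given, since the depth of 3 bulls is unknown. The precision rests on 3 bulls per group.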

Additional observations from a re-analysis of the deposited data

How the results depend on the processing

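The call count was 0 in every alternative run on tiles except 2, at least 10 positions per bull (3 calls) and the logistic regression with 10 reads per position (939 calls), and it was 0 in every alternative run on positions. The counts of higher and lower tiles, 3.78% and 1.53% of those tested, moved to 1058 and 294 (5.21% and 1.45%) with positions listed in all 6 bulls, 979 and 235 (4.17% and 1.001%) with at least 5 positions per bull, 7982 and 4507 (3.90% and 2.20%) with at least 1, and 394 and 14 (5.95% and 0.211%) with at least 10, and the cause was not tested. A difference over 10 points left 837 and 275, and averaging the strands, with 96103 tiles tested, gave 3284 and 1386, or 3.42% and 1.44% of the tiles. Leaving out each bull gave 2225 to 3716 higher and 867 to 1912 lower tiles, and 24584 to 30821 higher and 14429 to 22580 lower positions. Both the number of bulls that must not overlap and the number of tiles tested (33995 to 56031) differ there, and the cause was not tested. Higher tiles outnumbered lower ones in every setting run, by 58.5% of both with bull medians aligned up to 96.6% with at least 10 positions. The tiles at an unadjusted p under 0.05, 2612 in all, became 1111, 1173, 7511 and 418 with positions in all 6 bulls and at least 5, 1 and 10 positions, 3953 with strands averaged, 1293 over 10 points, 6027 in the logistic and 1668 in the F test, and 1691 to 2369 without a bull.

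The BTA14 bin differed by 9.12 to 11.5 points without each bull, and by 10.5 points with the layout as covariate, where its adjusted p was 0.213 in limma and 0 bins were under 0.05. Bins under 0.05 numbered 4 of 207 with positions in all 6 bulls, 2 with at least 10 tiles per bin, and 0 to 3 without a bull. The share of intermediate positions turned from 0.406 points higher in BDE high to -0.500 with all positions of each bull and to -0.493 with limits of 10 and 90%. Without each bull, the BTA25 difference ranged from -0.244 (without H05, and -0.139 without L03) to 0.694 points, that of BTA27 from -0.0342 to 0.941 and that of BTA29 from -0.143 to 0.851, the last 2 turning without L03. All 196 alternative limma values of the named tiles kept their direction, largely fixed by choosing tiles without overlap. None passed 0.01 (smallest adjusted p 0.0545, limma). The logistic regression with 10 reads per position called 18 of the 20 tiles. With overdispersion and F test their smallest adjusted p was 0.671. Of the 20 named tiles, 11 could be tested without each of the 6 bulls, 8 without some of them, and 1 only with all 6 present. Among these values, sizes moved by over 1.5 times in 5 tiles. Without H09, the losses from 15312001 and 15372001 on BTA14 and 26502001 on BTA1 went from -17.6 to -7.49, from -14.6 to -9.69 and from -23.9 to -13.5 points. Without L03, the loss from 2442001 on BTA16 went from -24.2 to -15.1, and without L08 the gain from 3050001 on BTA21 from 24.7 to 15.7. The share at most 20% methylated differed by -1.89 (without H02) to -0.502 points (without L03; -0.547 without H05), that at least 80% by 0.389 (without L03; 0.445 without H05) to 1.16 (without L02), and that between by 0.102 (without H05; 0.113 without L03, 0.117 without L02, 0.206 without L08) to 1.001 (without H09; 0.900 without H02). The difference in tiles with under 20 listed positions ranged from 0.564 (without L03; 1.13 without H05) to 2.68 (without L02), with 20 to 49 from 0.246 (without L03; 0.374 without H09) to 1.11 (without L02), with 50 to 99 from 0.434 (without L03) to 0.997, and with 100 or more from 0.286 (without H05; 0.480 without L03) to 1.20 (without H09). No paired analysis was possible because the replicate numbers come from accession order alone and pair no bulls.

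Depth limits the reading, because it is unknown for 3 bulls, tiles rest on a median of 8 positions, and 3 bulls per group cannot reach an exact p under 0.1.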

Other observations

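Some of the smallest p-values belonged to tiles with too few positions to be named by the rule, and they are given here as values chosen after they were seen. The tile with the smallest adjusted p in limma, 0.0661, was on BTA5 from 196001. It rested on 7 positions and had 24.3% in H02, 23.6% in L03 and 23.5% in L08, against 6.13% in H05, 8.74% in H09 and 8.21% in L02. The tile from 155628001 on BTA1 had 74.3%, 58.9% and 53.5% in H02, L03 and L08, against 15.7%, 14.6% and 17.6% in H05, H09 and L02, a difference of 46.2 points over 5 positions (adjusted p 0.0798, limma). On BTA16 from 39474001, 4 positions gave values from 31.9% to 45.1% in BDE high and from 12.6% to 15.6% in BDE low.

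Mean methylation over the positions listed in all 18 bulls was 28.2% in BDE high and 26.8% in BDE low, lower than over all positions of each bull (82.3% and 81.8%), in both groups.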
